A study of Mus musculus with 6 samples.

Results

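The mitochondrial chromosome of the mouse carries 37 genes: 13 encode mRNAs, 2 encode the rRNAs of the mitochondrial ribosome and 22 encode tRNAs. All rows whose symbol begins with mt- were taken, which gave 37 of the 48577 genes in the count files. All 37 lay on chrM in the GENCODE M21 annotation of GRCm38. Their counts were compared between epithelial cells of Miwi2tdTomato mice, in which tdTomato reports Piwil4, the gene of the Piwi protein MIWI2. Lungs of C57BL/6 mice were digested, and CD45-negative, EpCAM-positive cells were sorted into tdTomato-positive and tdTomato-negative fractions. Each of 3 mice gave 1 library of each fraction, so that 6 libraries carry the same reporter allele and background and differ in the sorted fraction. The submitters call both fractions multiciliated cells. Age, sex, zygosity, treatment and any gate for cilia are not given in the sources used here.

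Both strands of mitochondrial DNA are transcribed as long RNAs from start sites in a control region. Most tRNAs lie between the mRNAs and rRNAs, and cutting the tRNAs out releases the other RNAs. The mRNAs encode membrane subunits of respiratory complexes I, III, IV and V, whose other subunits are made from nuclear genes. Nuclear chromosomes also hold old copies of mitochondrial DNA, so a read can match the mitochondrion and a nuclear pseudogene alike. Multiciliated cells spend ATP on ciliary beating and hold many mitochondria below the cilia.

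Counts assigned to genes were 5602309 to 5763317 in tdTomato-positive libraries and 5330584 to 6326395 in tdTomato-negative libraries. The reporter had 37, 16 and 18 reads in tdTomato-positive libraries of mice 1, 2 and 3, against 0 reads in each tdTomato-negative library. Piwil4 was higher in tdTomato-positive libraries, at 103 ± 7.92 CPM against 39.9 ± 8.62 CPM in tdTomato-negative libraries (SD, n = 3 each; edgeR quasi-likelihood test, adjusted p = 0.000223). CPM values are counts scaled to a common library size, with TMM scaling factors. A principal component with 37.6% of the variance set the tdTomato-positive library of mouse 1, at 79.4, apart from the other 5 libraries, at -35.2 to 7.80. Results without mouse 1 are given below where they differ.

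Copies of mitochondrial genes in the nuclear genome were set beside the rows that hold reads in these files. Whether the copies determine which rows hold reads was not tested. In the annotation, 7 unprocessed pseudogenes between chr1:24611535-24616197, on the minus strand, follow the order of the mitochondrial genes from the end of mt-Co1 to the front of mt-Nd4. They match chrM:6390-11042, a span of 4653 bases, with 2 mismatches in 4140 aligned bases. The first 60 bases of mt-Nd3 and of its copy Gm28438 are shown because the 1 base that separates them there, T3C counted from the first base of the gene, is in capitals. They are at chrM:9459-9518, plus strand, and chr1:24613060-24613119, minus strand, of GRCm38, from GENCODE M21 transcripts.
mt-Nd3: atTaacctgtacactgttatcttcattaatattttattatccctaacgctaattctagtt
Gm28438: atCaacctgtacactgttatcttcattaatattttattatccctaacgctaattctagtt
For mt-Atp6, at chrM:7927-7986 on the plus strand, the first 60 bases equal those of the copy Gm10925, at chr1:24614592-24614651 on the minus strand, so no base is in capitals.
mt-Atp6: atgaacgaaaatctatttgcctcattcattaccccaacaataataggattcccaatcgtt
Gm10925: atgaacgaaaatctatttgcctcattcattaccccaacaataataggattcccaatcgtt
An older copy of mt-Cytb, Gm11410 on chr4, shows the contrast. Bases 61 to 120 of mt-Cytb, at chrM:14205-14264 on the plus strand, are set above the copy at chr4:80004049-80004108, plus strand, with the differing bases in capitals (C61T, T66C, C78T, T108C and G115A, counted from the first base of mt-Cytb).
mt-Cytb: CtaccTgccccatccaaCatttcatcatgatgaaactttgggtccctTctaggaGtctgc
Gm11410: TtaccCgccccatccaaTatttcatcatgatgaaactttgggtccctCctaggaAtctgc

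All 11 mitochondrial genes that lie wholly within the span these pseudogenes cover had 0 reads in all 6 libraries. These were the mRNAs mt-Co2 and mt-Co3 (complex IV), mt-Atp6 and mt-Atp8 (complex V), mt-Nd3 and mt-Nd4l (complex I), and the tRNAs mt-Ts1, mt-Td, mt-Tk, mt-Tg and mt-Tr. None of the 5 mRNAs and 2 rRNAs wholly outside the span was at 0. Of the 17 tRNAs outside it, however, 9 were at 0 as well, so rows of tRNAs at 0 were not confined to the span. The 2 mRNAs partly inside, mt-Co1 and mt-Nd4, had reads. Of the bases of mt-Co2, mt-Co3, mt-Atp6, mt-Nd3 and mt-Nd4l, 98.3% to 99.9% lay in runs of 75 or more bases identical to a nuclear transcript, against 0% for mt-Cytb, mt-Nd1, mt-Nd6, mt-Rnr1 and mt-Rnr2. For mt-Co1 the figure was 71.5%, for mt-Nd4 63.6%, for mt-Nd2 12.4% and for mt-Nd5 9.70%. The nuclear transcripts with the most matching bases were Gm13340 for mt-Co1 and Gm13339 for mt-Nd2, both on chr2. The measure covers annotated transcripts alone. No pseudogene is annotated where the greater part of mt-Atp8 and of the 5 tRNAs would lie on chr1, and the chr1 sequence there was not analysed. For mt-Atp8 the match with the most matching bases in a nuclear transcript, over 167 aligned bases, had 81.4% identity. Closer matches covered 21.1% of the bases of mt-Atp8, which overlaps mt-Atp6 at its end. It had 0% of bases in runs of 75 or more identical bases. The 5 tRNAs, at 65 to 70 bases, are shorter than such a run. For them no match in an annotated nuclear transcript was found. No level or fold change is given for the 6 mRNAs at 0. Reads aligned to several places, which have a summary row of their own, made up 8.26% to 12.03% of all rows in tdTomato-positive libraries and 9.86% to 10.9% in tdTomato-negative libraries. How many of them came from this span was not tested.

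**Figure D1:**
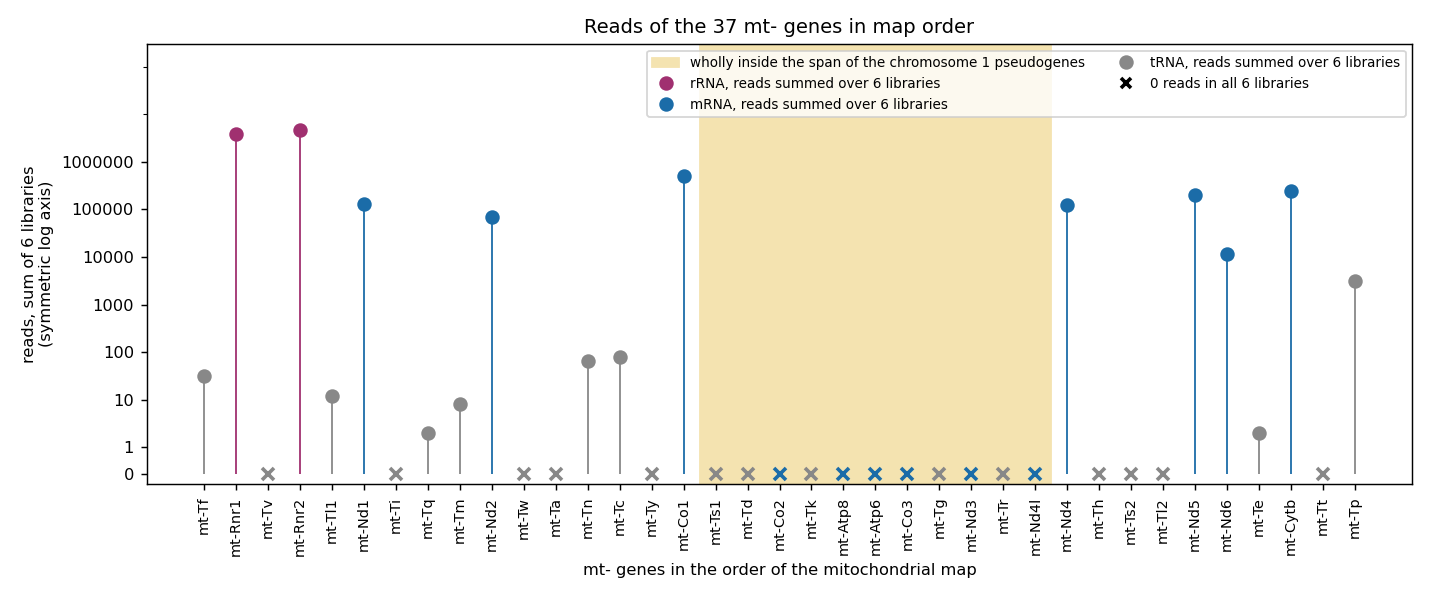
Reads summed over 6 libraries (y axis, symmetric log scale) for the 37 mt- genes in map order (x axis); crosses mark rows with 0 reads in all libraries, and the shaded band holds the genes wholly inside the span of the chromosome 1 pseudogenes. All 11 genes in the band are at 0, and the 9 other crosses are among the 17 tRNAs outside it.

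The rows of the copies had few reads. Of 17 nuclear copies found with at least 90% identity over at least 100 aligned bases, 16 were in the count files and 11 had at least 10 reads in all. Gm28438, the copy of mt-Nd3, had 205, 27 and 11 reads in tdTomato-positive libraries of mice 1, 2 and 3, against 643, 57 and 33 reads in tdTomato-negative libraries. It was lower in the tdTomato-positive library of each mouse, with groups that overlapped (log2 fold change -1.70 ± 0.27 SE, edgeR adjusted p = 0.00119, and 0.755 without the replicate block). Gm10222, the copy of mt-Nd4l, had 61, 20 and 33 reads in tdTomato-positive libraries, against 184, 46 and 26 in tdTomato-negative libraries (edgeR adjusted p = 0.161). Gm13340, a copy of mt-Co1 on chr2, had 41, 42 and 13 reads in tdTomato-positive libraries, against 32, 33 and 19 in tdTomato-negative libraries. Its CPM was higher in 2 of 3 mice, and it was not called (log2 fold change -0.16 ± 0.47 SE, edgeR adjusted p = 0.904). Gm11407, a copy of mt-Nd5, and Gm28439, a copy of mt-Nd4, were not called either (edgeR adjusted p = 0.606 and 0.349). Gm10925, identical to mt-Atp6 over 678 aligned bases, had 16 reads in all. Whether the reads in these rows came from the nuclear copies or from mitochondrial RNA was not tested.

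In total the 37 rows held 9803576 reads, of which 8504961 were rRNA, 1295251 mRNA and 3364 tRNA. The mitochondrial share of counts in genes was lower in the tdTomato-positive library of each mouse. It was 23.8%, 19.5% and 20.4% in tdTomato-positive libraries of mice 1, 2 and 3, against 31.7%, 43.6% and 31.9% in tdTomato-negative libraries. The groups did not overlap. The means were 21.2% ± 2.26 in tdTomato-positive libraries and 35.7% ± 6.82 in tdTomato-negative libraries (SD, n = 3 each), a difference of -14.5 ± 8.50 percentage points (SD over mice). Over all HTSeq rows, unassigned reads included, the difference was -6.53 points. An exact two-sided permutation test of the share within mice gave p = 0.25, the smallest that 3 pairs allow, and an exact unpaired permutation test gave p = 0.1, the smallest that 3 against 3 allows. In bulk RNA, fewer mitochondria-rich cells and less mitochondrial RNA per cell cannot be told apart.

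The rRNAs made up most of this share. They held 19.6%, 17.4% and 18.7% of counts in tdTomato-positive libraries of mice 1, 2 and 3, against 24.6%, 39.1% and 28.6% in tdTomato-negative libraries, with no overlap. The mRNAs held 4.17%, 2.11% and 1.69% in tdTomato-positive libraries, against 7.05%, 4.53% and 3.29% in tdTomato-negative libraries. Here the groups overlapped, because the tdTomato-positive library of mouse 1 lay above the tdTomato-negative library of mouse 3, while each mouse differed in the same direction. Counted against other genes only, there were 5.47, 2.63 and 2.12 mRNA reads per 100 non-mitochondrial reads in tdTomato-positive libraries, against 10.3, 8.03 and 4.83 in tdTomato-negative libraries. The lower mRNA level was thus also present when no mitochondrial read entered the denominator.

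**Figure D2:**
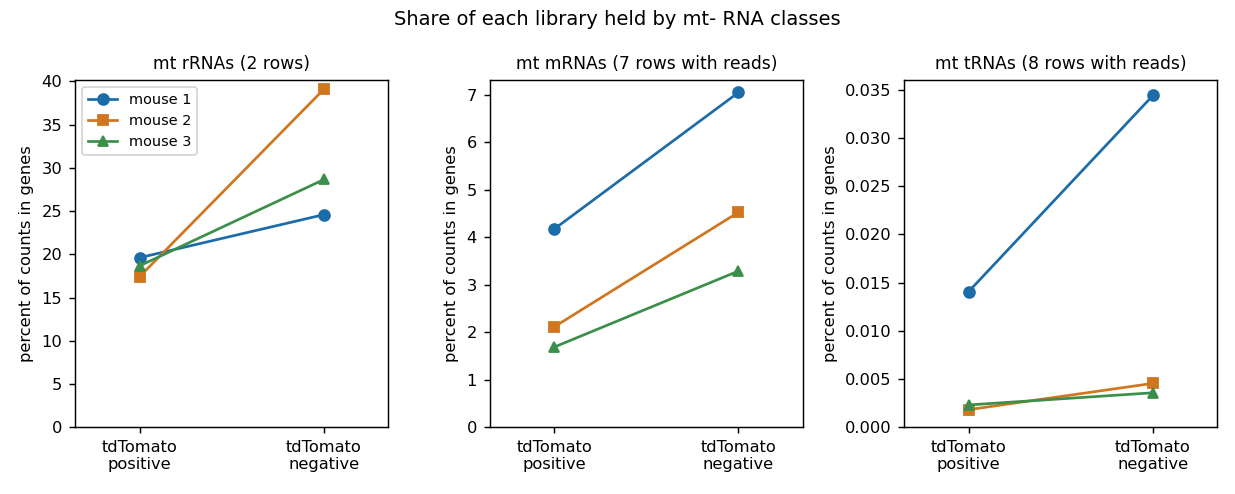
Percent of counts in genes (y axes) from mt rRNAs, mt mRNAs and mt tRNAs in the 3 tdTomato-positive and 3 tdTomato-negative libraries, with lines joining the libraries of 1 mouse. The rRNA share is 17.4% to 19.6% in tdTomato-positive libraries and 24.6% to 39.1% in tdTomato-negative libraries, and the mRNA share is lower in the tdTomato-positive library of each mouse.

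Of the 37 rows, 11 passed the filter on low counts: 7 mRNAs, 2 rRNAs and the tRNAs mt-Tp and mt-Tn. Of the other 26, 20 had 0 reads in all libraries and 6 were tRNAs with few reads. The main model held the mouse as a replicate block, since the labels give both libraries of a pair to 1 individual. In it all 7 tested mRNAs were lower in tdTomato-positive libraries, beside 1.79% of all 13175 tested genes that were called lower at an adjusted p under 0.05. None of the 11 was called higher, which held for 1.36% of all tested genes. The median log2 fold change of the 7 mRNAs was -1.29, beside 0.00 over all tested genes. Each of the 7 was lower in 3 of 3 mice, which held for 18.8% of all tested genes. Per mouse the median log2 ratio of the 7 mRNAs was -0.99, -1.63 and -1.24.

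Fewer of the 7 mRNAs were called without the pairing or without mouse 3. Without the replicate block 0 of the 7 mRNAs were called by edgeR, beside 0.577% of all genes called lower. At an unadjusted p under 0.05, 2 of the 7 were lower, and DESeq2 without the block called 2. The shares of all genes at these 2 settings were not computed. Without mouse 3, 1 of the 7 was called, mt-Nd6, beside 59 of all genes, against 415 in the main model. The others had log2 fold changes of -1.02 to -1.38, and the median of the 7 mRNAs was -1.31. With mitochondrial genes left out of the library total and the scaling factors, the 7 mRNAs were again called lower (1.75% of all genes were), and their median was -1.29. Scaling by library size alone gave them a median of -1.03 while it moved the median of all genes to 0.26, and the 7 mRNAs were called lower there too (1.38% of all genes). The median of the 7 mRNAs minus that of all genes was -1.29 under each of these scalings. A change of the library total moves all genes nearly alike, so the scalings are not separate tests.

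Cytochrome c oxidase, complex IV, passes electrons to oxygen. Its catalytic subunit mt-Co1 (chrM:5328-6872, plus strand) had the most reads per kilobase among the 7 mitochondrial mRNAs with reads. It had 14922, 9191 and 6691 CPM in tdTomato-positive libraries of mice 1, 2 and 3, against 22236, 25191 and 15375 CPM in tdTomato-negative libraries. Every tdTomato-positive library lay below every tdTomato-negative library, which held for 9.02% of all tested genes. This was a log2 fold change of -1.08 ± 0.16 (SE), or 2.11-fold lower (edgeR adjusted p = 0.000597, and 0.212 without the replicate block).

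Complex III hands electrons to cytochrome c, and mt-Cytb (chrM:14145-15288, plus strand) encodes its only mitochondrially made subunit, cytochrome b. It had 6604, 3590 and 3133 CPM in tdTomato-positive libraries, against 12343, 11774 and 7405 CPM in tdTomato-negative libraries. These groups did not overlap either. This was a log2 fold change of -1.29 ± 0.15 (SE), or 2.44-fold lower (edgeR adjusted p = 7.22e-05, and 0.125 without the replicate block).

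Complex I, the entry point for electrons from NADH, has its mitochondrially made subunits in the membrane arm. Of these, 5 could be tested, and each was lower in 3 of 3 mice with groups that overlapped, since the tdTomato-positive library of mouse 1 reached into the range of the tdTomato-negative libraries. The level of mt-Nd1 (chrM:2751-3707) was 4381, 1561 and 1584 CPM in tdTomato-positive libraries, against 8849, 4713 and 3111 CPM in tdTomato-negative libraries (2.29-fold lower, edgeR adjusted p = 8.08e-05). The level of mt-Nd2 (chrM:3914-4951) was 3108, 482 and 474 CPM in tdTomato-positive libraries, against 6163, 1636 and 1140 CPM in tdTomato-negative libraries (2.53-fold lower, edgeR adjusted p = 3.81e-05). Both libraries of mouse 1 were high for mt-Nd2, each above the other 2 libraries of its fraction. The level of mt-Nd4 (chrM:10167-11544) was 4573, 1626 and 1343 CPM in tdTomato-positive libraries, against 8032, 4436 and 3069 CPM in tdTomato-negative libraries (2.22-fold lower, edgeR adjusted p = 8.82e-05). The level of mt-Nd5 (chrM:11742-13565), a proton-pumping subunit as are mt-Nd2 and mt-Nd4, was 6697, 2212 and 1889 CPM in tdTomato-positive libraries, against 14231, 6853 and 4498 CPM in tdTomato-negative libraries (2.50-fold lower, edgeR adjusted p = 2.22e-05). Without the replicate block the adjusted p of these 4 genes was 0.539 to 0.771. Unpaired values of mt-Nd2 rested on mouse 1: its log2 fold change was -1.14 without the block, -0.03 when the tdTomato-negative library of mouse 1 was also left out, and -2.64 when the tdTomato-positive library of mouse 1 was. For the other 3 genes these settings gave -0.65 to -0.57 and -2.05 to -1.80.

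The mRNA of mt-Nd6 (chrM:13552-14070, minus strand) is the only mitochondrial mRNA encoded on the light strand, opposite to the others. It had 322, 78.2 and 88.3 CPM in tdTomato-positive libraries, against 1017, 396 and 246 CPM in tdTomato-negative libraries. Among the 7 mRNAs it had the lowest log2 fold change, -1.82 ± 0.17 (SE), or 3.54-fold lower (edgeR adjusted p = 4.87e-06, and 0.545 without the replicate block). Relative to the other 6 mRNAs it was also lower in each mouse, at 8.003, 4.19 and 5.84 reads per 1000 in tdTomato-positive libraries, against 14.2, 7.26 and 7.11 per 1000 in tdTomato-negative libraries. The log2 difference of this ratio was -0.63 ± 0.30 (SD over 3 mice; exact permutation p within mice 0.25, the smallest possible). No source used here gives the strand setting of the counting. In these counts, reads of mt-Nd6 and RNA of the opposite strand cannot be told apart.

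**Figure D3:**
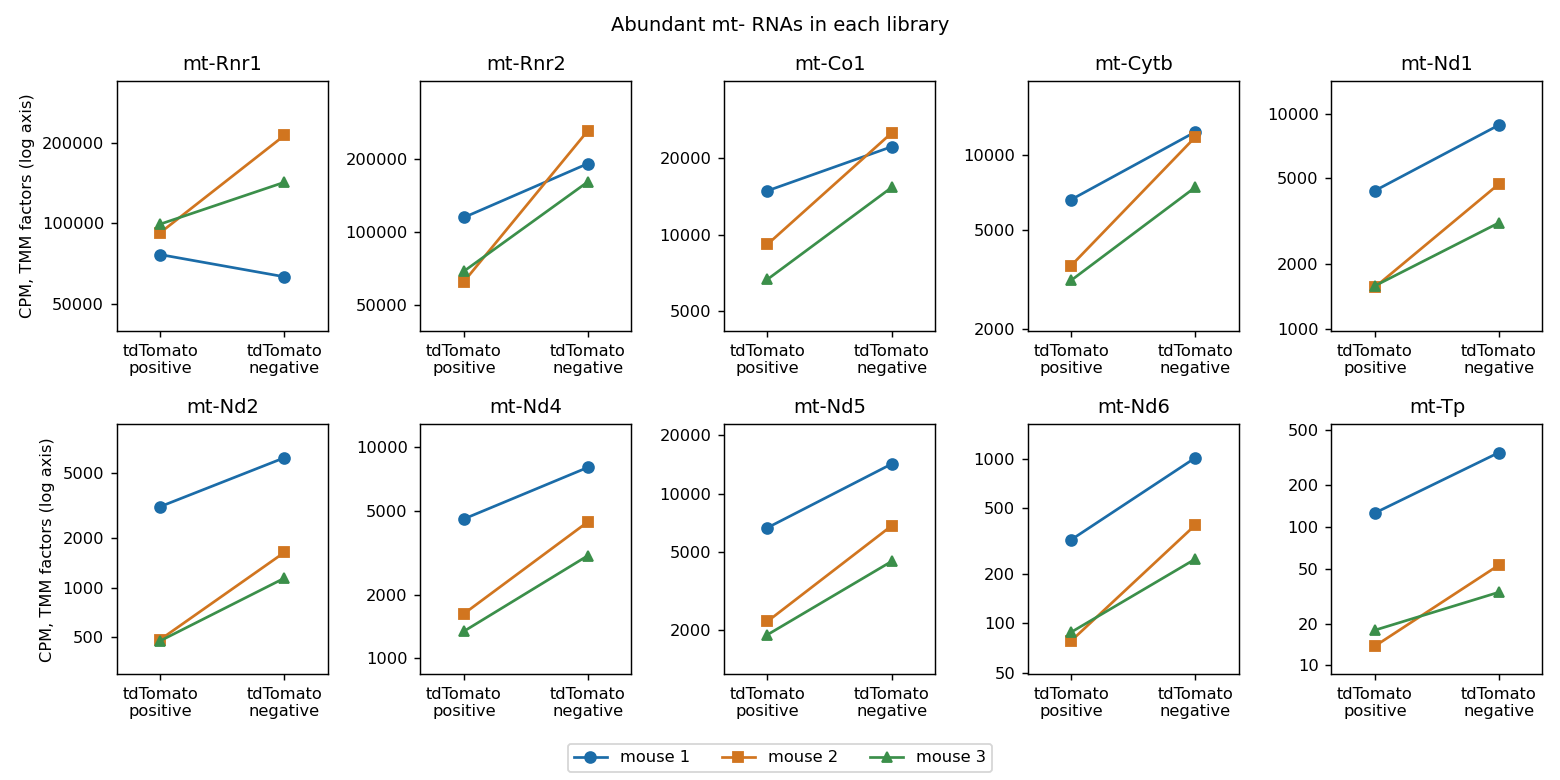
CPM with TMM factors (y axes, log scale, each with its own range) of 2 rRNAs, 7 mRNAs and mt-Tp in tdTomato-positive and tdTomato-negative libraries, with a line for each mouse. The lines slope upward toward the tdTomato-negative library in each panel and mouse except for mt-Rnr1 in mouse 1, and mouse 1 lies above mice 2 and 3 in the mt-Nd panels and mt-Tp.

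The rRNAs behaved unequally. The large-subunit rRNA mt-Rnr2 (chrM:1094-2675, plus strand) had 114620, 62279 and 68759 CPM in tdTomato-positive libraries of mice 1, 2 and 3, against 191287, 261692 and 160980 CPM in tdTomato-negative libraries. The groups did not overlap, and the test gave 2.54-fold lower levels, with a log2 fold change of -1.34 and an SE of 0.20 (edgeR adjusted p = 0.000921). This call was lost without the replicate block (adjusted p = 0.0758), without mouse 3 (0.295), and with DESeq2 (0.103) or limma-voom (0.314) with the block; over all alternatives its adjusted p was 2.59e-16 to 0.426. In these 4 settings its log2 fold change was -1.32, -1.41, -1.34 and -1.35, in the same order. The small-subunit rRNA mt-Rnr1 (chrM:70-1024, plus strand) had 76317, 92155 and 99268 CPM in tdTomato-positive libraries, against 63022, 213357 and 142470 CPM in tdTomato-negative libraries. Mouse 1 differed from mice 2 and 3 in direction, with a log2 fold change of -0.49 and an SE of 0.22 (edgeR adjusted p = 0.307). Without mouse 1 it was -0.89 and was called (adjusted p = 0.00933; 0.007 to 0.955 over all alternatives), and without mouse 2 it was -0.12 (adjusted p = 0.822). Without the block and the tdTomato-negative library of mouse 2 it was -0.20 (adjusted p = 0.955).

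Reads of mt-Rnr2 per read of mt-Rnr1 numbered 1.502, 0.676 and 0.693 in tdTomato-positive libraries, against 3.04, 1.23 and 1.13 in tdTomato-negative libraries. This ratio of neighbouring genes, which no library total enters, was lower in the tdTomato-positive library of each mouse by a similar size, with log2 differences of -1.02, -0.86 and -0.71 (mean -0.86 ± 0.15 SD; exact permutation p within mice 0.25, the smallest possible). The ratio of rRNA to mRNA reads was 4.70, 8.24 and 11.1 in tdTomato-positive libraries, against 3.49, 8.64 and 8.71 in tdTomato-negative libraries. Its log2 difference, 0.24 ± 0.27 (SD, n = 3 mice; exact permutation p within mice 0.5), was within the spread between mice.

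**Figure D4:**
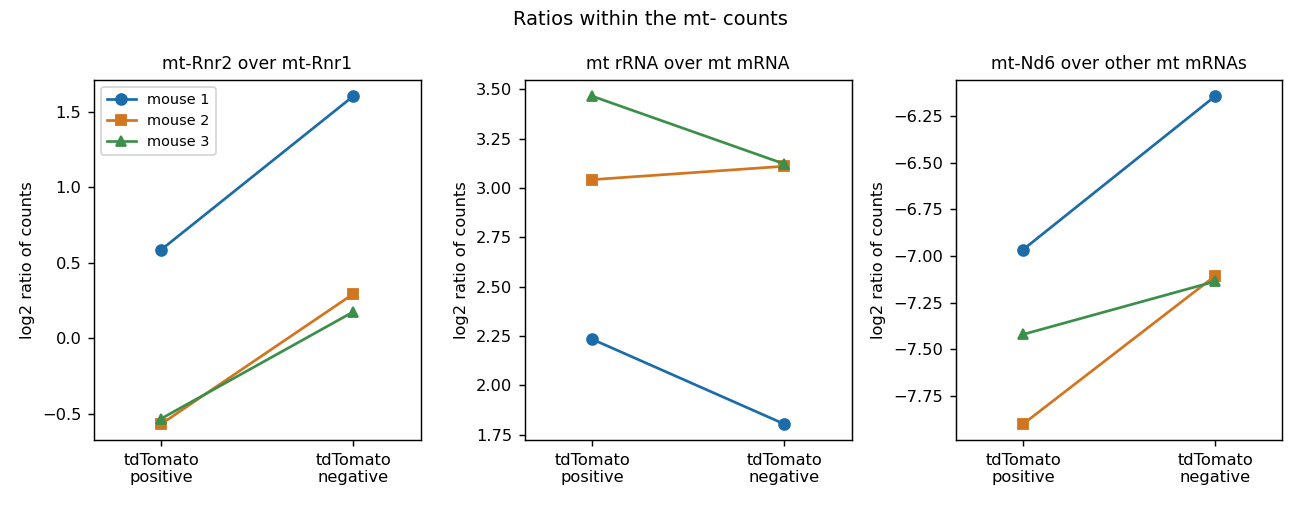
Log2 ratios of mitochondrial RNA counts within each library (y axes, each with its own range) in tdTomato-positive and tdTomato-negative libraries, with a line for each mouse. The ratios of mt-Rnr2 to mt-Rnr1 and of mt-Nd6 to the other mRNAs are lower in the tdTomato-positive library of each mouse, while the ratio of rRNA to mRNA is lower in 1 of 3.

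Per kilobase and averaged over libraries, mt-Rnr1 was followed by mt-Rnr2, mt-Co1, mt-Cytb, mt-Nd1, mt-Nd5, mt-Nd4, mt-Nd2 and mt-Nd6. Each gene lay above the next in all 6 libraries, except that mt-Rnr1 lay above mt-Rnr2 and mt-Nd4 above mt-Nd2 in 5. The levels of mt-Co1, mt-Nd4, mt-Nd2 and mt-Nd5 come from rows that share identical stretches with nuclear transcripts, so their places hold for counted reads. At the ends of the order, mt-Rnr1 had 93452 ± 12303 CPM per kilobase in tdTomato-positive libraries and 146195 ± 78752 in tdTomato-negative libraries, and mt-Nd6 had 314 ± 266 in tdTomato-positive libraries and 1066 ± 787 in tdTomato-negative libraries (SD, n = 3 each). Within the mRNA pool, mt-Co1 took 36.7%, 49.0% and 44.0% of reads in tdTomato-positive libraries, against 30.5%, 45.8% and 44.1% in tdTomato-negative libraries. The pool of mouse 1 differed from those of mice 2 and 3 in both fractions: mt-Nd2 took 7.65% in the tdTomato-positive and 8.46% in the tdTomato-negative library of mouse 1, against 2.57% to 3.27% in the other 4 libraries.

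Few tRNA rows held reads. Of 22, 14 were at 0 in all libraries, 3 had under 10 reads in all, and 5 had at least 10: mt-Tp with 3166, mt-Tc with 79, mt-Tn with 64, mt-Tf with 31 and mt-Tl1 with 12. The sequences of 4 of these are shown because each of them borders bases with no annotated gene, whereas the other tRNAs lie 0 to 5 bases from a gene on either side or overlap one. Between mt-Tn (chrM:5089-5159, minus strand) and mt-Tc (chrM:5192-5257, minus strand) lie 32 bases. The first and last genes of the map are mt-Tf (chrM:1-68, plus strand) and mt-Tp (chrM:15356-15422, minus strand), with the control region between them on the circle. Sequences are from GENCODE M21 with the anticodon in capitals; these tRNAs carry phenylalanine, proline, asparagine and cysteine, in the order shown.
mt-Tf: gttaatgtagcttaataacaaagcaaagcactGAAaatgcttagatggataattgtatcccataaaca
mt-Tp: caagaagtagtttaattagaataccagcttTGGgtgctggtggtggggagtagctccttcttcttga
mt-Tn: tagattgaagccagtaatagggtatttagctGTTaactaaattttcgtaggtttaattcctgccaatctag
mt-Tc: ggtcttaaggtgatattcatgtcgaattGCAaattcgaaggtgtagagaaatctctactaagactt

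Of the tRNA reads, mt-Tp took 84.5% to 91.9% in tdTomato-positive libraries and 88.7% to 96.6% in tdTomato-negative libraries. It had 745, 87 and 113 reads in tdTomato-positive libraries of mice 1, 2 and 3, against 1772, 276 and 173 reads in tdTomato-negative libraries. Each mouse was lower in its tdTomato-positive library, and both libraries of mouse 1 lay above those of mice 2 and 3 of their fraction, so the groups overlapped. Its log2 fold change reached -1.44 ± 0.20 (SE), or 2.70-fold lower (edgeR adjusted p = 0.000314, and 0.765 without the replicate block). In these counts, reads of mt-Tp and RNA of the opposite strand cannot be told apart either. The level of mt-Tn, 22, 6 and 3 reads in tdTomato-positive libraries against 19, 4 and 10 reads in tdTomato-negative libraries, did not pass the test (log2 fold change -0.48 ± 0.77 SE, edgeR adjusted p = 0.816).

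**Figure D5:**
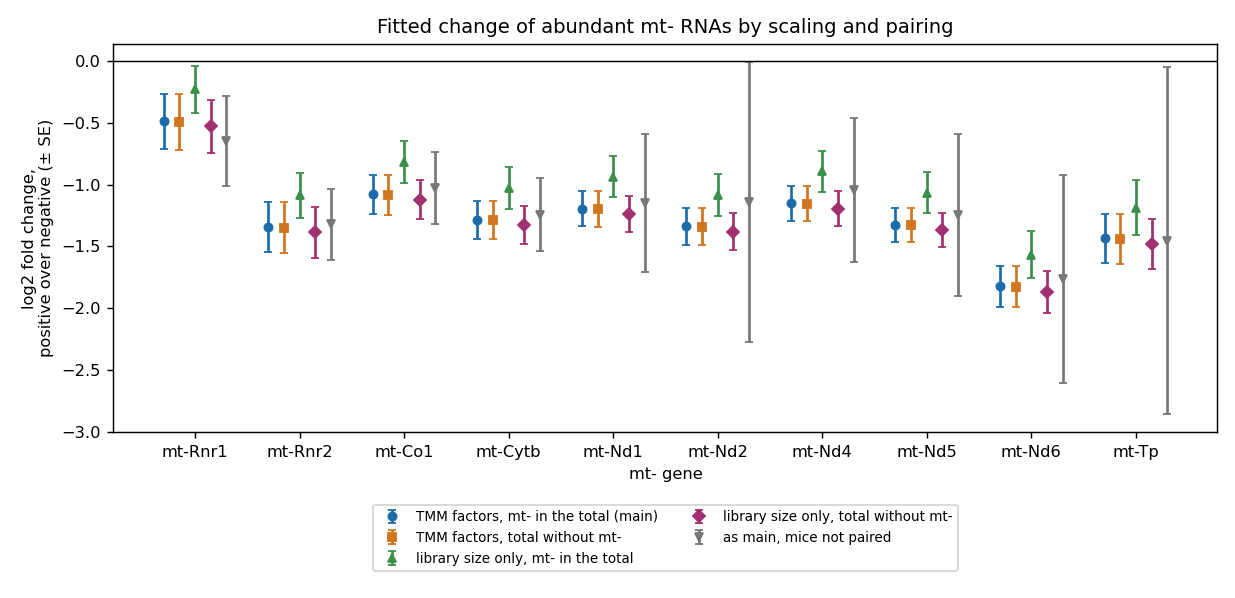
Log2 fold change, tdTomato-positive over tdTomato-negative (y axis, with SE bars), of 10 mt- genes (x axis) under 4 scalings of the library total with the replicate block and, in grey, without the block. With the block the 7 mRNAs, mt-Rnr2 and mt-Tp stay below 0 under each scaling, at -1.87 to -0.82, and the grey bars of the mt-Nd genes and mt-Tp are longer.

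Nuclear genes that supply and express the mitochondrial genome were counted beside the mitochondrial RNAs. These lists were compiled with earlier results of these data known. Among 63 tested nuclear genes for subunits of complexes I, III, IV and V, 0 were called by edgeR, beside 3.15% of all tested genes called in either direction. Of the 63, 6 had an unadjusted p under 0.05. DESeq2 and limma-voom with the block called 1 each of the 63, beside 464 and 544 of all genes. For this list and those below, the share of all genes at an unadjusted p was not computed. Their log2 fold changes were above 0 for 48 of the 63, as they were for 50.05% of all tested genes, and the median was 0.26, beside 0.00 over all tested genes. Atp5b, the catalytic beta subunit of ATP synthase, had 873 ± 143 CPM in tdTomato-positive libraries and 609 ± 84.5 CPM in tdTomato-negative libraries (SD, n = 3 each; edgeR adjusted p = 0.0538). Of the 4 genes of complex II, which has no mitochondrially encoded subunit, 0 were called by edgeR, DESeq2 or limma-voom, and 0 had an unadjusted p under 0.05.

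Of 121 tested genes for mitochondrial transcription and replication, RNA processing, ribosomal proteins and aminoacyl-tRNA synthetases, 1 was called, beside the same 3.15%. This was Lars2, which charges the mitochondrial leucine tRNAs. It had 880, 707 and 367 CPM in tdTomato-positive libraries of mice 1, 2 and 3, against 398, 136 and 106 CPM in tdTomato-negative libraries. It was higher in 3 of 3 mice, opposite to the mitochondrial mRNAs, with groups that overlapped (log2 fold change 1.77 ± 0.19 SE, edgeR adjusted p = 3.44e-05, and 0.436 without the replicate block). The 17 listed synthetases, Lars2 included, summed to 1095, 1029 and 630 CPM in tdTomato-positive libraries, against 652, 420 and 379 CPM in tdTomato-negative libraries. The median log2 fold change of the 15 tested was 0.03. Which part of the gene the Lars2 reads came from was not tested. Mtpap, the mitochondrial poly(A) polymerase, had 17.3 ± 1.34 CPM in tdTomato-positive libraries and 26.5 ± 1.37 CPM in tdTomato-negative libraries (SD, n = 3 each), which did not pass over all genes (edgeR adjusted p = 0.256). Of 7 regulators of mitochondrial biogenesis and 12 genes of mitochondrial clearance, 0 were called by edgeR, DESeq2 or limma-voom with the block, and 1 and 2 of them had an unadjusted p under 0.05.

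The fractions also differed in markers of epithelial cell types, read here beside 1.36% of all tested genes called higher and 1.79% called lower. These shares are for edgeR with the block. With the block, DESeq2 called 464 genes in either direction and limma-voom 544. Without the block edgeR called 6 genes higher and 76 lower. Shares of all genes at an unadjusted p, or for DESeq2 without the block, were not computed. Marker counts at those settings therefore have no background beside them. The 21 multiciliated markers summed to 11195 to 11818 CPM in tdTomato-positive libraries and 11640 to 12364 CPM in tdTomato-negative libraries, and 3 of them were called higher and 0 lower. Unadjusted p-values under 0.05 were found for 7 higher and 3 lower; DESeq2 with the block called 4 higher and 0 lower, limma-voom with the block 5 higher and 3 lower, and edgeR without the block 0. Of 16 tested club cell markers 7 were called higher, with sums of 9766 to 23608 CPM in tdTomato-positive libraries and 5827 to 9502 CPM in tdTomato-negative libraries. Of 17 markers of alveolar type 2 cells, which secrete surfactant, 13 were called lower and none was at 0, with sums of 702 to 1402 CPM in tdTomato-positive libraries and 8280 to 9718 CPM in tdTomato-negative libraries. Leukocyte markers summed to 34.0 to 80.2 CPM in tdTomato-positive libraries and 66.1 to 224 CPM in tdTomato-negative libraries, with 2 of 5 tested called lower. Markers of alveolar type 1 cells, the flat cells of gas exchange, summed to 949 to 1151 CPM in tdTomato-positive libraries and 547 to 642 CPM in tdTomato-negative libraries, with 2 of 11 tested called higher and 2 lower. Much of these sums was Cldn18, with means of 661 CPM in tdTomato-positive and 244 CPM in tdTomato-negative libraries. Ager was lower, at 1.74 against 8.72 CPM. The median log2 fold change of the 11 was -0.11, and 2 were higher and 5 lower at an unadjusted edgeR p under 0.05. Mesenchymal markers summed to 18.4 to 98.3 CPM in tdTomato-positive libraries and 32.6 to 194 CPM in tdTomato-negative libraries; of 7 tested 0 were called by edgeR, 4 had an unadjusted p under 0.05, and DESeq2 and limma-voom called 1 each. Endothelial, basal and erythroid markers summed to at most 28.2, 0.791 and 26.9 CPM in tdTomato-positive libraries and at most 18.2, 14.0 and 55.1 CPM in tdTomato-negative libraries. Of 3 tested endothelial markers 0 were called by edgeR, DESeq2 or limma-voom, and 1 had an unadjusted p under 0.05. The 1 tested basal marker, the transcription factor Trp63, was lower, with 0 CPM in each tdTomato-positive library and 8.26 ± 3.57 CPM in tdTomato-negative libraries (SD, n = 3; edgeR adjusted p = 0.000236, and 0.00693 without the block). Of 4 tested erythroid markers 1 was called lower, the globin gene Hbb-bs (edgeR adjusted p = 0.0121, and 0.311 without the block). Without the block edgeR called 0 of the 16 club markers, 0 of the 5 leukocyte markers, 8 of the 17 alveolar type 2 markers and 1 of the 11 alveolar type 1 markers. Without the block, unadjusted p-values under 0.05 were found for 6 club, 2 leukocyte and 7 multiciliated markers, and DESeq2 called 1, 1 and 0 of them. Malat1, a nuclear RNA that marks the nuclear share of a library, had 8022 ± 1043 CPM in tdTomato-positive libraries and 10218 ± 1573 CPM in tdTomato-negative libraries (SD, n = 3 each; edgeR adjusted p = 0.189). Of 3 tested long RNAs kept in the nucleus, Malat1 among them, 0 were called by edgeR or DESeq2 with the block. With the block, limma-voom called 1 lower, and 2 were lower at an unadjusted edgeR p under 0.05. The log2 fold changes were -0.35 for Malat1, -0.31 for Kcnq1ot1 and -0.20 for Neat1. The part of cell composition in the lower mitochondrial RNA was not tested.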

How the data were processed

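Each library has 1 deposited file of raw counts by gene symbol, with 48577 genes and 5 HTSeq summary rows, which entered neither library sizes nor tests. Of all rows, reads in no gene made up 43.8% to 49.4% in tdTomato-positive and 41.0% to 49.4% in tdTomato-negative libraries, and ambiguous reads 1.31% to 1.99%. Per the submitters' processing notes, the tools were STAR 2.4.2a, HTSeq, cutadapt 1.7.1, FastQC and DESeq2, with GRCm38.p4 and mm10. The HTSeq version and strand setting are not given in the sources used here. Per the labels' protocols, TruSeq Nano libraries were made from Trizol-extracted total RNA after Ovation RNA-Seq System V2 amplification.

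The members, gene lists and tests were chosen with earlier results of these data known. From the deposited counts, CPM with TMM factors and log2 fold changes of tdTomato-positive over negative libraries were computed with edgeR 4.0.16 in R 4.3.3 (quasi-likelihood test, two-sided, robust). The filter filterByExpr, with a minimum count of 10, kept 13175 genes, and genes with an adjusted p-value (Benjamini-Hochberg, all kept genes) under 0.05 were called. The model held the mouse as a replicate block because the labels name the same individual for both libraries of a pair. Deviations of the 2 libraries of a mouse from their group means correlated across genes at 0.254 to 0.346, and those of different mice at -0.213 to -0.0963. Shares and ratios were compared with exact permutation tests. Alternatives dropped the block, a mouse or a library, the mitochondrial genes from the library total, the TMM factors or the filter, or used DESeq2 1.42.0 or limma-voom (limma 3.58.1).

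Nuclear copies were found by aligning the mitochondrial transcripts to GENCODE M21 transcripts with blastn 2.17.0. All tested mitochondrial genes are named, with up to 3 genes of the smallest p per list. The 3 counts that a count of 0 allows correspond to 0.475 to 0.585 CPM per library. They reflect counting error alone, because PCR copies were counted without molecular identifiers. The fitting code was tested on simulated counts.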

Additional observations from a re-analysis of the deposited data

How the results depend on the processing

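The number of libraries and the pairing limit these results. All genes called numbered 415 with the replicate block, 82 without it, 823 with library size alone, 677 without the filter, 59 to 633 without 1 mouse (59 without mouse 3, 633 without mouse 1), and, without the block and 1 library, 113, 74 and 47 (tdTomato-positive of mouse 1, 2 and 3) and 34, 42 and 43 (tdTomato-negative of mouse 1, 2 and 3), and 643 without mouse 1 and with mitochondrial genes out of the total, a setting chosen after seeing the data. Mitochondrial mRNAs called numbered 7 with the block, 0 without it, 1 to 7 without 1 mouse and 0 to 2 without the block and 1 library. The rRNAs called numbered 1 with the block, 0 without it, with DESeq2 or with limma-voom, 0 to 2 without 1 mouse, 0 to 1 without the block and 1 library, and 2 in the added setting. The tRNAs called numbered 1 with the block, 0 without it, 1 whichever mouse was left out, and 0 without the block and 1 library. In the supporting nuclear lists, 1 gene was called with the block, 0 without it, 6 with library size alone, 3 without the filter, 2 with DESeq2, 3 with limma-voom, 1 to 2 without 1 mouse, 0 to 1 without the block and 1 library, and 2 in the added setting. The median log2 fold change of the 7 mRNAs was -1.46 to -1.07 without 1 mouse and -1.82 to -0.65 without the block and 1 library (-0.95 and -0.90 without the tdTomato-positive library of mouse 2 and 3). The difference in mitochondrial share was -17.8 to -9.72 percentage points without 1 mouse, and the log2 difference in the ratio of rRNA to mRNA was 0.14 to 0.39. The log2 fold change of mt-Tp turned to 0.28 without the block and the tdTomato-negative library of mouse 1. That of mt-Tn turned to 0.13 without mouse 3 (-0.79 without mouse 2), to 0.12 without the block and the tdTomato-positive library of mouse 3, and to 0.33 without the block and the tdTomato-negative library of mouse 1. The cause was not tested for any of these. No other named mitochondrial gene changed sign under the alternatives run.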
